A study of Mus musculus with 6 samples.

Results

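The 30 genes described here encode proteins of heart muscle: the myosin motor and its light chains, the actin thin filament with its troponins, the Z disc, calcium handling, the natriuretic peptides, myoglobin and 5 transcription factors of the heart. They were read in cells of mouse fetal liver, an organ that makes red blood cells at this stage. The list was drawn up with the values of these libraries known, and all 30 symbols were found among the 54232 gene IDs of the count tables. Their fall or rise between the groups is therefore given as a description, without a test.

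The cells came from livers of C57/B6 embryos at stage E13.5, purified for cells that lack Ter-119, an antigen carried by maturing red cells. One group of 3 libraries was taken at day 0, untreated. The other group of 3 libraries was taken after 30 h in medium with erythropoietin (EPO), the hormone of red cell production, with the solvent DMSO added at 24 h and present for 6 h. None of the libraries analysed here is labelled as having received the caspase inhibitor Z-VAD-FMK. The groups thus differ in culture, EPO and DMSO together, and these cannot be told apart. The labels call the cells progenitor cells. The only selection they give is the absence of Ter-119, and they do not say whether animals were pooled. The labels do not say whether the replicates of a group are separate cultures or litters, so any p-value reflects the spread among these 6 libraries, which may be technical.

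In heart muscle, myosin heavy chains (Myh6, Myh7) pull on actin filaments (Actc1), while troponins and tropomyosin let calcium switch the contact on. The light chains differ by chamber: Myl4 and Myl7 are known as atrial, Myl2 and Myl3 as ventricular, and the factors Gata4, Nkx2-5, Tbx5, Hand1 and Hand2 direct heart development. Several of the genes have uses elsewhere: Actc1, Tnnt2, Tnni1, Tnnc1 and Myl4 in embryonic skeletal muscle, Myl2 and Myl3 in slow muscle fibres, Tpm1 in most cells, and Gata4 and Hand2 in mesenchyme and other tissues.

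Promoter windows are shown for 3 members with high day 0 levels that were lower at 30 h (Actc1, Myl7, Myl4). Shown as well are both members whose scaled levels in all 30 h libraries lay above day 0 (Tpm1, Casq2). The sequences are from RefSeq on build GRCm38.p6, 5′ to 3′ on the gene's strand, and run from 250 bases before to 50 bases after an annotated start. They lie at chr2:114052826-114053125 (minus strand, Actc1), chr11:5898733-5899032 (minus strand, Myl7), chr11:104550413-104550712 (plus strand, Myl4), chr9:67049164-67049463 (minus strand, Tpm1) and chr3:102086165-102086464 (plus strand, Casq2). Capitals mark matches to the CArG box, the element read by serum response factor, to the MEF2 site, read by a factor family of muscle, to TATAAA, the TATA box, and to TGATAA, which is read by factors of the GATA family.
Actc1: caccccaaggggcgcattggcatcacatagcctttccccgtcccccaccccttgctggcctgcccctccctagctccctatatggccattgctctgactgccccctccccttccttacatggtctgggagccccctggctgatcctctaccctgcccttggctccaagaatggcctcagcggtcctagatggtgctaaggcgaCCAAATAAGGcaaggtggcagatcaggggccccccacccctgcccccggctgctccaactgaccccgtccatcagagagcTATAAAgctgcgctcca
Myl7: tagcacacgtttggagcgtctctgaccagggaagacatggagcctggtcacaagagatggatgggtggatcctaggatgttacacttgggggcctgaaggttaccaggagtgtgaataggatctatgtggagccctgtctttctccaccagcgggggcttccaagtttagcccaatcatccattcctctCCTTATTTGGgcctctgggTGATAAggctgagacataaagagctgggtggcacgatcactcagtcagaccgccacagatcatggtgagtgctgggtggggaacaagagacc
Myl4: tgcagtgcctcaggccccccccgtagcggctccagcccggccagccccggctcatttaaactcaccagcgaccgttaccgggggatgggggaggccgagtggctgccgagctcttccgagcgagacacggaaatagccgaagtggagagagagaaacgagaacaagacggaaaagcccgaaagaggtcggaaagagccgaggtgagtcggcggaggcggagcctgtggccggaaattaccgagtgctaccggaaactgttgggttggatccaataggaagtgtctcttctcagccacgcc
Tpm1: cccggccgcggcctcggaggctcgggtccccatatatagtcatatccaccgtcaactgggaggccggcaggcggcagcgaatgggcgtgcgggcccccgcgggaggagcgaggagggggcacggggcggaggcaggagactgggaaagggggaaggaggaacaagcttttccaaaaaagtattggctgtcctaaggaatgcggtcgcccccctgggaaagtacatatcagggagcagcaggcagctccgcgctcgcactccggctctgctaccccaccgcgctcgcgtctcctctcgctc
Casq2: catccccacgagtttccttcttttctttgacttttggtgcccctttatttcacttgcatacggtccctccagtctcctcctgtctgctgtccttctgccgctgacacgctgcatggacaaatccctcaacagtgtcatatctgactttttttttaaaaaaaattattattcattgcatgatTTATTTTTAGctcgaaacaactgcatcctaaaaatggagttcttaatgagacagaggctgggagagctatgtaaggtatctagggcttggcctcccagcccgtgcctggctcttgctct

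The Actc1 window held a CArG box at bases 204 to 213 and TATAAA at 284 to 289, counted from its 5′ end. This TATAAA began at position 34 from the annotated start and thus lay downstream of it. The Myl7 window held a CArG box at bases 190 to 199 and TGATAA at 209 to 214. In Casq2 a MEF2 site stood at bases 182 to 191, while the windows of Myl4 and Tpm1 held no match. RefSeq windows were found for 27 members, 35 windows in all, and both strands were searched in each. The CArG box was in 14.3% of the members' windows (Actc1, Ldb3, Myl3 and Myl7) and in 1.63% of all 32851 windows, and the MEF2 site in 8.57% (Casq2, Mybpc3 and Ttn) and 3.19%. For AGATAA the shares were 20% and 11.2%, for TGATAA 17.1% and 9.05%, and for TATAAA 17.1% and 13.6%. A match is a description of the letters and not evidence of binding.

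Levels of 1 gene across libraries are given as CPM, counts relative to the library size after scaling by TMM, a method that sets library sizes from the bulk of the genes. Levels of different genes are compared only as RPKM, that is, scaled CPM per kilobase of merged exons. Library totals were 27754279 to 29949173 counts at day 0 and 19241780 to 24154481 at 30 h. Errors are SD with n = 3 unless a standard error (SE) is named. Of 16150 genes that passed the filter on low counts, 5553 were higher and 6483 lower at 30 h by the edgeR quasi-likelihood test with Benjamini-Hochberg adjustment at 0.05. The 15 erythroid genes listed had 2438 to 2650 CPM in sum at day 0, against 122229 to 173820 CPM at 30 h. All 15 had counts at day 0, but so did all 16 hepatoblast genes listed, with 15126 to 17257 CPM in sum. Detection at day 0 therefore does not check the cell type.

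All 30 cardiac genes had counts in every day 0 library, and 27 of them were lower in each 30 h library than in any day 0 library. In TMM-scaled CPM, Tpm1 and Casq2 were above day 0 in all 3 libraries, and Nppb overlapped. Among all genes tested, 43.4% had every 30 h library below day 0 and 36.3% every one above. At 30 h the mean level of the members was 9.8% of day 0 in the median (11.5% with Nppa, which had no count at 30 h, set at the level of 3 counts over the group), against 93.8% over all genes tested. At most 2% of day 0 was left for 6 members, at most 10% for 15 and at most 50% for 26. Over all genes tested these shares were 1.5%, 7.65% and 28.7%. The low-count filter kept 29 members and left out Nppa. In the fit over all genes 24 members lay past the threshold as lower, where 40.1% of all genes did, and 2 as higher, where 34.4% did, leaving Tnnc1, Ankrd1 and Nppb. Since the list was drawn from this contrast, nothing is read from these counts. Mean levels at 30 h were above day 0 for 3 members and for 47.2% of all genes tested. In RNA from a mixture, fewer cells of a type and less RNA per cell cannot be told apart.

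**Figure D1:**
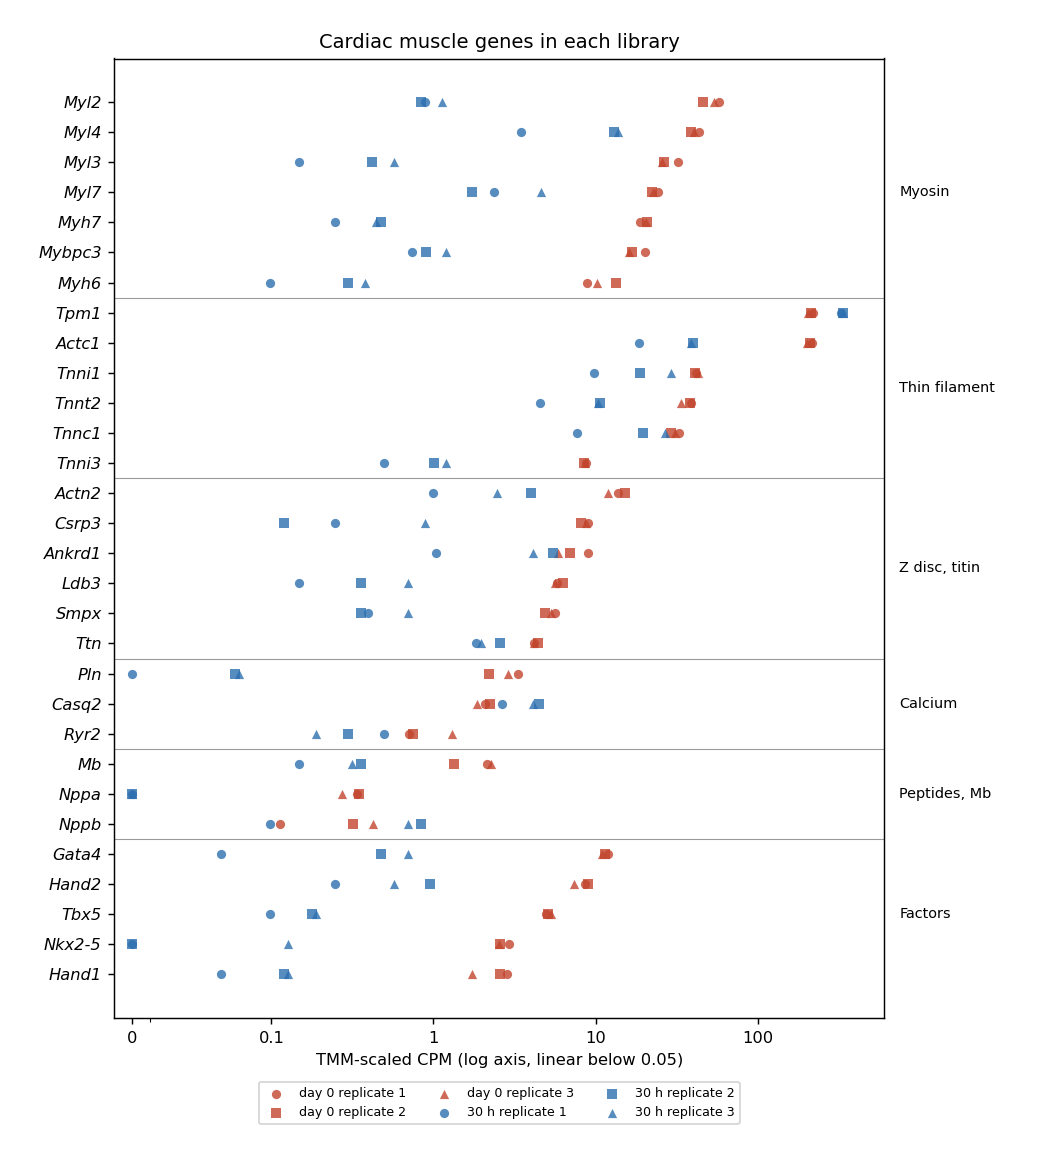
TMM-scaled CPM (log axis, linear below 0.05) of each member in the 3 day 0 libraries (red) and the 3 30 h libraries (blue), grouped by role; each symbol is 1 library. For 27 members all blue symbols lie left of all red ones, Tpm1 and Casq2 show the opposite order, and Nppb overlaps.

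The members held 0.1%, 0.0958% and 0.0936% of all counts in day 0 replicates 1, 2 and 3, and 0.032%, 0.0403% and 0.0395% in 30 h replicates 1, 2 and 3. Tpm1 carried most of what was left at 30 h. Without Tpm1 the shares were 0.0743%, 0.0705% and 0.0692% at day 0 and 0.00481%, 0.0112% and 0.012% at 30 h. Exact 95% Clopper-Pearson intervals, which cover counting error only, were 0.0733 to 0.0753% for the first of these day 0 libraries and 0.00454 to 0.0051% for the first at 30 h.

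Per exon length, Actc1 was the most abundant member at day 0, at 129 ± 5.01 RPKM, higher than 98.2% of all genes tested. Myl7 (38.9 ± 1.73 RPKM), Tpm1 (32.9 ± 1.09), Tnnc1 (29.6 ± 1.66), Myl2 (26.9 ± 3.09), Myl3 (13.8 ± 1.75), Tnni1 (11.5 ± 0.227) and Myl4 (8.79 ± 0.462) followed. Each of these was separated from the next in all libraries except Tnnc1 and Myl2, whose ranges overlapped. This order holds for merged exons. By the longest transcript it was Actc1, Tpm1, Myl2, Tnnc1 and Myl7, while Myl3, Tnni1 and Myl4 kept their ranks. Tnnt2, Mybpc3, Tnni3 and Actn2 came next at 4.78 ± 0.358, 4.22 ± 0.529, 4.18 ± 0.0608 and 3.59 ± 0.41 RPKM, and of these neighbours in the order only Tnni3 and Actn2 did not overlap. Of the 29 neighbouring pairs in the whole order, 12 were separated. The lowest levels were those of Ttn and Ryr2, 0.0363 ± 0.00107 and 0.032 ± 0.0116 RPKM, both with very long exonic sequence. The median member stood at 2.72 RPKM at day 0 beside 3.36 RPKM for all genes tested, and at 0.219 beside 3.16 RPKM at 30 h.

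The ventricular light chain genes kept a small percentage of their day 0 level. Myl2 (chromosome 5, 122100951 to 122113472, mm10), the regulatory light chain of the ventricle, had 57.7, 45.8 and 53.6 CPM at day 0 and 0.888, 0.834 and 1.13 CPM at 30 h, 55-fold lower (fitted log2 change -5.78, SE 0.18). Myl3 (chromosome 9, 110741861 to 110769798), the essential light chain of the ventricle and of slow muscle, had 32.3, 26.4 and 25.7 CPM at day 0 and 0.148, 0.417 and 0.567 CPM at 30 h, 74.6-fold lower. The groups lay far apart for both genes, and the 30 h values of Myl3 rest on 3, 7 and 9 counts. Myl3 overlaps Pth1r on the opposite strand by 95 bases.

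The atrial light chains kept more. Myl7 (chromosome 11, 5896637 to 5898782), the atrial regulatory chain, had 24.1, 22.3 and 22.5 CPM at day 0 and 2.37, 1.73 and 4.6 CPM at 30 h, or 12.6% of day 0. Myl4 (chromosome 11, 104550663 to 104595753), the atrial and embryonic essential chain, had 43.1, 38.9 and 40.3 CPM at day 0. At 30 h it had 3.45, 12.9 and 13.7 CPM, that is 70, 216 and 218 counts, or 24.6% of day 0 (log2 change -2.04, SE 0.41). All 30 h libraries lay below day 0, and replicate 1 was the lowest of them. Without 30 h replicate 1 the log2 change of Myl4 was -1.55. The RPKM ratio of Myl7 to Myl2 went from 1.46 ± 0.128 at day 0 to 9.69 ± 3.37 at 30 h, and the ratio of Myl4 to Myl3 went from 0.643 ± 0.0511 to 11.5 ± 1.81, without overlap in either ratio. Myl4 was thus the lower of its pair at day 0 and the higher at 30 h in all 3 libraries of each group. By the longest transcript in place of merged exons, Myl2 ranked 3 and Myl7 5 among the members at day 0, against 5 and 2. Which of Myl7 and Myl2 was the higher at day 0 thus depends on the length used.

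**Figure D2:**
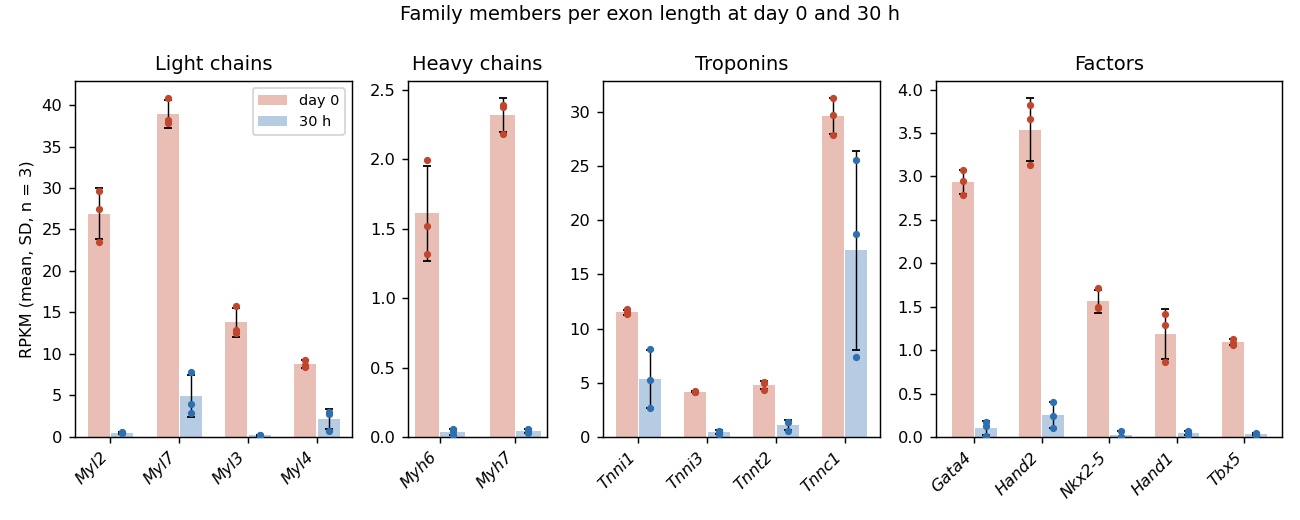
RPKM (scaled CPM per kilobase of merged exons) of light chains, heavy chains, troponins and transcription factors; bars are means, lines SD and points the 3 libraries of each group. Myl2 and Myl3 are near 0 at 30 h (0.488 and 0.185 RPKM), while Myl7, Myl4, Tnni1 and Tnnc1 remain visible (4.91, 2.16, 5.35 and 17.2 RPKM).

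The heavy chains went down together. Myh7 (chromosome 14, 54970684 to 54994626), the slow and beta cardiac chain, had 18.8, 20.6 and 20.5 CPM at day 0 and 0.247, 0.477 and 0.441 CPM at 30 h, 1.94% of day 0. Myh6, the adjacent alpha cardiac chain gene (54941921 to 54966927), had 8.85, 13.4 and 10.2 CPM at day 0 and 0.0987, 0.298 and 0.378 CPM at 30 h, 2.39% of day 0. The RPKM ratio of Myh7 to Myh6 was 1.48 ± 0.239 at day 0 and 1.37 ± 0.531 at 30 h, with overlapping ranges, on 2 to 8 counts per gene at 30 h. Of all 50-base stretches of Myh6 transcripts, 20.2% also occur in Myh7, so the split of reads between them is uncertain. Mybpc3, the myosin binding protein C of the heart, had 20.1, 16.7 and 16 CPM at day 0 and 0.74, 0.894 and 1.2 CPM at 30 h (log2 change -4.23, SE 0.20). Its groups also lay far apart.

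In the thin filament, actin and tropomyosin moved in opposite directions. Actc1 (chromosome 2, 114047282 to 114053548), cardiac alpha actin, had 215, 211 and 200 CPM at day 0 and 18.5, 39.7 and 38.8 CPM at 30 h, 15.5% of day 0 (log2 change -2.69, SE 0.27). Tpm1 (chromosome 9, 67022590 to 67049406), alpha tropomyosin, had 219, 214 and 205 CPM at day 0 and 324, 334 and 336 CPM at 30 h, 1.55-fold higher (log2 change 0.64, SE 0.09). With libraries scaled by totals only, the log2 change of Tpm1 was 0.15, in a setting that moved the median over all genes from -0.09 to -0.58. The counts do not separate the muscle and non-muscle transcripts of Tpm1.

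The troponins split by isoform. Tnni3 (chromosome 7, 4518305 to 4524229), the adult cardiac troponin I, had 8.76, 8.51 and 8.62 CPM at day 0 and 0.493, 1.01 and 1.2 CPM at 30 h, 10.4% of day 0. Tnni1 (chromosome 1, 135779434 to 135810989), the slow skeletal isoform that the fetal heart also uses, had 41.4, 40.8 and 42.5 CPM at day 0 and 9.72, 18.9 and 29.2 CPM at 30 h, 46.4% of day 0. The RPKM ratio of Tnni1 to Tnni3 was 2.76 ± 0.0574 at day 0 and 12 ± 1.76 at 30 h, without overlap. Tnnt2, cardiac troponin T, which binds tropomyosin, had 39, 38.3 and 33.8 CPM at day 0 and 4.54, 10.7 and 10.4 CPM at 30 h. Tnnc1, the calcium sensor of heart and slow muscle, had 32.5, 29 and 30.9 CPM at day 0 and 7.7, 19.5 and 26.6 CPM at 30 h. Both groups of Tnnc1 stayed apart, but 30 h replicate 3 reached 86.5% of the day 0 mean and replicate 1 only 25%. The log2 change of Tnnc1, -0.79 (SE 0.37), was -0.35 without 30 h replicate 1 and -1.20 without 30 h replicate 3.

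At the Z disc, which anchors the thin filaments, all 6 members were below day 0 in every 30 h library. Actn2, the muscle alpha actinin, had 13.7, 15.1 and 12 CPM at day 0 and 0.987, 3.99 and 2.46 CPM at 30 h, 18.2% of day 0. Csrp3, Ldb3 and Smpx, which encode smaller proteins of the contractile apparatus, were left at 4.84%, 6.8% and 9.15% of day 0. Csrp3 rests on 5, 2 and 14 counts at 30 h, and its log2 change of -4.41 was -5.47 without 30 h replicate 3, while that of Ldb3 went from -3.93 to -4.56. Ankrd1, a stretch-induced regulator, and Ttn, the giant spring protein, were left at 48.8% and 49.8%. Ankrd1 ranged from 14.3% of day 0 in 30 h replicate 1 to 75.7% in replicate 2, whereas Ttn ranged from 43% to 60.4%.

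The calcium handling genes ranged from near absence at 30 h to a level above day 0. Pln, phospholamban, the brake of the calcium pump, had 117, 76 and 95 counts at day 0 and 0, 1 and 1 at 30 h. Its pooled CPM ratio was 1.35% of day 0, with an exact 95% interval for counting error of 0.163 to 4.93%. Without 30 h replicate 1, which had no count, its log2 change of -6.04 was -5.35. Of the 50-base stretches of Pln, 52.9% also lie in Gm47644 on the opposite strand, a gene with 8 counts over all libraries. Pln also overlaps Cep85l on the opposite strand by 141 bases, a gene with 1509 counts over all libraries. Casq2 (chromosome 3, 102086415 to 102146514), cardiac calsequestrin, the calcium buffer, had 2.09, 2.22 and 1.85 CPM at day 0 and 2.66, 4.47 and 4.09 CPM at 30 h. This 1.82-fold higher level rests on 61 to 77 counts per library at day 0 and 54 to 75 at 30 h, and no raw count at 30 h exceeded the highest at day 0. The log2 change of Casq2, 0.85, was 0.36 with scaling by totals only. In that setting the groups of Casq2 overlapped: 54 of 24154481 counts in 30 h replicate 1 lay below 77 of 29278777 in day 0 replicate 2. Ryr2, the calcium release channel, went from 0.921 ± 0.334 to 0.327 ± 0.154 CPM on 3 to 43 counts per library.

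The natriuretic peptides were near the detection limit in both groups. Nppa (chromosome 4, 148000722 to 148002079), the atrial peptide, had 12, 12 and 9 counts at day 0 and 0 in each 30 h library, at least 5.64-fold lower when 3 counts over the 30 h group are taken as the floor (0.0567 CPM). Nppb, the neighbouring brain natriuretic peptide gene (147985788 to 147987205), had 0.113, 0.317 and 0.425 CPM at day 0 and 0.0987, 0.834 and 0.693 CPM at 30 h. The groups of Nppb overlapped, and its higher mean at 30 h comes from 14 and 11 counts in replicates 2 and 3, with 2 in replicate 1. Its log2 change of 0.86 was 1.48 without that library. Mb, myoglobin, the oxygen store of muscle, went from 1.91 ± 0.504 to 0.273 ± 0.111 CPM, 14.3% of day 0.

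The 5 transcription factors had means at 30 h between 1.56% and 7.07% of day 0. Gata4 (chromosome 14, 63198922 to 63271692), a zinc finger activator of heart genes, had 12, 11.5 and 10.9 CPM at day 0 and 0.0493, 0.477 and 0.693 CPM at 30 h, 3.54% of day 0. Its log2 change of -4.89 was -4.23 without 30 h replicate 1 and -5.52 without 30 h replicate 3. Hand2, a basic helix-loop-helix factor, had 8.62, 9 and 7.37 CPM at day 0 and 0.247, 0.954 and 0.567 CPM at 30 h, 7.07% of day 0. Of its 50-base stretches 15.8% also lie in Hand2os1, a gene on the opposite strand. Tbx5, a T-box factor of heart and forelimb, had 4.95, 5.05 and 5.28 CPM at day 0 and 0.0987, 0.179 and 0.189 CPM at 30 h, 3.05% of day 0. Nkx2-5 (chromosome 17, 26838664 to 26845009), the early cardiac homeobox gene, had 104, 89 and 84 counts at day 0 and 0, 0 and 2 at 30 h, a pooled CPM ratio of 1.4% with an exact 95% interval of 0.169 to 5.12%. Its log2 change of -5.98 was -5.30 without 30 h replicate 1, and without 30 h replicate 3 no count was left at 30 h. Hand1, the relative of Hand2, had 100, 89 and 57 counts at day 0 and 1, 2 and 2 at 30 h. No factor had overlapping groups, and per exon length Hand2 (3.54 ± 0.363 RPKM) and Gata4 (2.94 ± 0.14) stood above Nkx2-5 (1.56 ± 0.128), Hand1 (1.19 ± 0.287) and Tbx5 (1.09 ± 0.0365) at day 0 in all libraries.

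**Figure D3:**
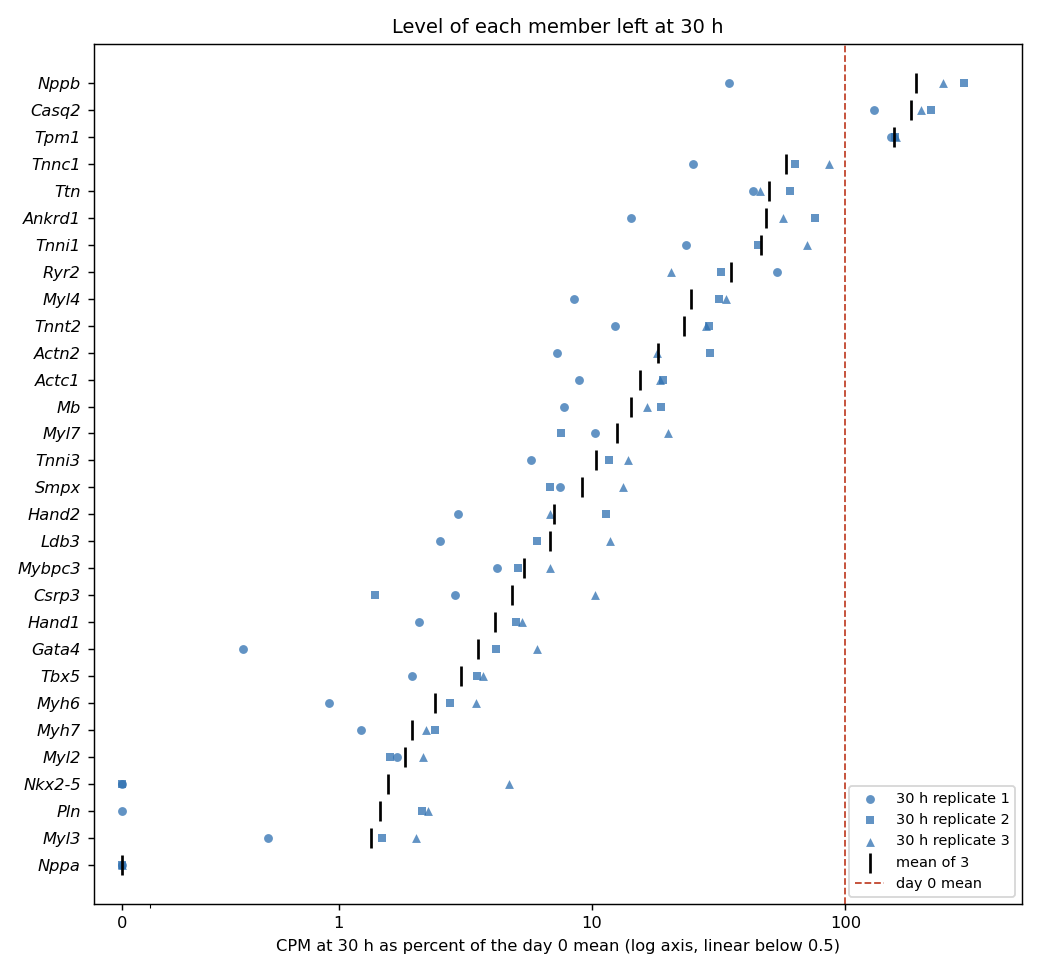
CPM of each member in the 3 30 h libraries (points) as percent of its day 0 mean, on a log axis that is linear below 0.5, with the mean of the libraries as a bar and the day 0 mean as a dashed line. Means run from 0 for Nppa and 1.34% for Myl3 to 182% for Casq2 and 190% for Nppb, and the circle of replicate 1 alone is lowest for 23 of 30 members. Over all genes tested, 38.8% were lowest in 30 h replicate 1, its ties included.

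The members varied little within day 0 and widely within 30 h. The median coefficient of variation of the 29 members tested was 7.5% at day 0 (6.4% over all genes tested) and 50.6% at 30 h (19.8%). At 30 h 15 of the 30 members had mean counts under 10. Day 0 replicate 1 had the highest level for 17 members, replicate 2 for 8 and replicate 3 for 5. Over all genes tested these shares were 33.7%, 35.2% and 31.1%. Of the 30 h libraries, replicate 1 alone was the lowest for 23 of 30 members, with 2 more tied at 0 (Nppa and Nkx2-5). Over all genes tested, 38.8% were lowest in 30 h replicate 1, its ties included. The members' median log2 deviation from the 30 h group mean was -0.58, 0.26 and 0.38 in replicates 1, 2 and 3, against -0.01, 0.04 and -0.03 over all genes tested. The values were -0.77, 0.31 and 0.49 for hepatoblast genes and -0.62, 0.39 and 0.26 for skeletal muscle genes, but -0.09, 0.14 and 0.03 for endothelial genes and 0.14, -0.02 and -0.11 for erythroid genes. Without 30 h replicate 1 the members' median log2 change of -3.29 was -3.08.

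Cardiac genes outside the 30 were also mostly lower, where 40.1% of all genes tested were called lower and 34.4% higher. This list and the other gene lists below were likewise chosen with earlier results of these data known. Their counts and p-values are therefore a description and no independent test. Of 50 further genes of heart muscle, 43 were tested, of which 33 were lower and 4 higher, with a median level at 30 h of 23.5% of day 0 (29% with the 4 genes without counts at 30 h set at the floor). Hspb7, a small heat shock protein of heart, fell from 7.39 ± 0.452 to 0.144 ± 0.0949 CPM (adjusted p = 2.59e-06 by edgeR), with a log2 change of -5.57 that was -6.20 without 30 h replicate 1. Srl, sarcalumenin of the calcium store, fell from 25.6 ± 2.49 to 5.2 ± 0.777 CPM (adjusted p = 6e-06 by edgeR). Nebl, nebulette of the cardiac Z disc, fell from 13.8 ± 0.201 to 4.7 ± 0.178 CPM (adjusted p = 1.06e-05 by edgeR). Lmod2, a leiomodin of the thin filament, had 33, 21 and 24 counts at day 0 and 0 in each 30 h library (adjusted p = 0.000575 by edgeR). The genes that rose were Popdc2, a membrane protein gene of heart and muscle, Mylk3, the cardiac myosin light chain kinase, Cacna1c, the L-type calcium channel, and Cox6a2, a respiratory chain subunit of muscle. Popdc2 rose 6.94-fold, from 5.81 ± 0.303 to 40.4 ± 0.252 CPM (adjusted p = 7.12e-07 by edgeR), and Mylk3 2.67-fold, from 30.3 ± 2.2 to 80.9 ± 14 CPM (adjusted p = 6.05e-05 by edgeR). With scaling by totals only, 2 genes of the list were higher, and the log2 changes of Cacna1c and Cox6a2 were 0.45 and -0.05, neither past the threshold. The call of Cox6a2 (adjusted p = 0.048 by edgeR) was also lost when any library but 30 h replicate 1 was left out, with upper-quartile scaling, without the filter, in DESeq2 and with the replicate block. Atp2a2, the calcium pump of heart and of most other cells, had the highest CPM of the list and fell from 341 ± 7.21 to 228 ± 73.9 CPM (adjusted p = 0.0449 by edgeR), a call lost when day 0 replicate 1, 2 or 3 or 30 h replicate 2 was left out (edgeR gave adjusted p = 0.0824, 0.101, 0.0887 and 0.0733).

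Most of the skeletal muscle genes listed had counts in both groups. Of 30 listed, 24 were tested: 11 fell, 3 rose and 10 were not called, where 40.1% of all genes tested were called lower and 34.4% higher. Their summed level was 168 to 186 CPM at day 0 and 96.3, 172 and 183 CPM in 30 h replicates 1, 2 and 3. Tnnc2, fast troponin C, had 0 counts in all 6 libraries, and 3 further genes (Myh4, Myf6 and Pax3) had counts at day 0 and 0 in all 30 h libraries. Myog, a regulator of muscle differentiation, stood at 33 ± 2.49 CPM at day 0 and 21.3 ± 8.7 CPM at 30 h (adjusted p = 0.0781 by edgeR), and Acta1, skeletal alpha actin, at 17.9 ± 1.06 and 12.6 ± 3.96 CPM (adjusted p = 0.0706 by edgeR). With scaling by totals only both were past the threshold as lower (log2 changes -1.12 and -0.99), and Acta1 was also without 30 h replicate 2 or 3 (-0.68 and -0.62) and with no filter (-0.60). Pax7, a factor of muscle precursors, fell from 2.32 ± 0.195 to 0.0397 ± 0.0688 CPM (adjusted p = 4.34e-05 by edgeR). Its 2 counts at 30 h lie in replicate 2, so its log2 change of -5.77 was -5.09 without 30 h replicate 1, and without replicate 2 no count was left. Tnnt3, fast troponin T, rose 2.35-fold, from 1.7 ± 0.279 to 4.01 ± 1.53 CPM (adjusted p = 0.00769 by edgeR). Its log2 change of 1.22 was 0.73 with scaling by totals only (adjusted p = 0.0622 by edgeR). In that setting 1 skeletal gene was higher and 16 lower, against 5 and 10 when 30 h replicate 1 was left out. The RPKM ratio of Actc1 to Acta1 was 11.1 ± 0.243 at day 0 and 2.39 ± 0.2 at 30 h, and that of Myl4 to Myl1, the essential light chain of fast muscle, was 2.34 ± 0.123 and 1.27 ± 0.233. Neither ratio overlapped between the groups. The part of skeletal muscle RNA in the members' levels was not tested.

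Many genes of the other cell types that a liver fraction could hold were lower as well, and their levels are given beside the members. Over all genes tested, 40.1% were called lower and 34.4% higher. The 16 hepatoblast genes were all lower, with 15126 to 17257 CPM in sum at day 0 and 844, 2230 and 2422 CPM in 30 h replicates 1, 2 and 3. Afp, alpha-fetoprotein, had the highest CPM, at 7067 ± 226 and 1336 ± 658 CPM (adjusted p = 0.000594 by edgeR). Mesenchymal and stellate cell genes fell in 13 of 14 cases, to a median of 1.95% of day 0 (1892 to 2375 CPM in sum at day 0, 33.4 to 57.8 CPM at 30 h). Col1a1, type I collagen, fell from 700 ± 97.7 to 8.85 ± 3.68 CPM (adjusted p = 2.26e-06 by edgeR). Mesothelial and epicardial genes fell in 9 of 11 tested of 12 listed, to a median of 4.08% of day 0. Their sum was 81.6 to 93.6 CPM at day 0 and 19.4 to 75.2 CPM at 30 h. Tcf21, a mesenchymal factor, went from 5.77 ± 0.767 to 0.0363 ± 0.0319 CPM (adjusted p = 3.27e-06 by edgeR). Krt8, a keratin, did not pass the test, at 39 ± 4.31 and 38.7 ± 20.4 CPM (adjusted p = 0.972 by edgeR), although it passed once 30 h replicate 1 was left out, with a log2 change of 0.42. In that setting 2 genes of its list were higher. Krt8 made up 15.6, 54.3 and 46.1 CPM of the list's sums of 19.4, 75.2 and 61.2 CPM in 30 h replicates 1, 2 and 3. Krt19, also a keratin, stood at 215% of day 0 and was not called (adjusted p = 0.104 by edgeR).

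The same shares of all genes tested, 40.1% lower and 34.4% higher, stand beside the counts that follow. Endocardial and valve genes fell in 8 of 9 cases (130 to 157 CPM in sum at day 0, 20.3 to 27.8 CPM at 30 h), among them Postn, periostin, at 56.9 ± 6.71 and 2.91 ± 1.35 CPM (adjusted p = 9.99e-06 by edgeR). Smooth muscle genes fell in 11 of 13 tested of 14 listed (229 to 268 CPM in sum at day 0, 51.2 to 120 CPM at 30 h), among them Acta2, smooth muscle actin, from 71.7 ± 8.05 to 26.2 ± 13 CPM (adjusted p = 0.00616 by edgeR). Tagln, an actin-binding protein of smooth muscle, was the 1 called higher (1.36 ± 0.393 and 3.38 ± 1.8 CPM, adjusted p = 0.03 by edgeR), a call lost when day 0 replicate 2 or 3 or 30 h replicate 2 or 3 was left out (edgeR gave adjusted p = 0.101, 0.0869, 0.122 and 0.0766). Endothelial genes fell in 13 of 14 cases (443 to 487 and 174 to 214 CPM in sum), with Stab2, a scavenger receptor of liver sinusoids, at 23.3 ± 3.06 and 0.103 ± 0.0955 CPM (adjusted p = 1.6e-06 by edgeR). The log2 change of Stab2, -7.87, was -7.15 without 30 h replicate 1 and -8.64 without 30 h replicate 3. Egfl7, with the highest CPM of them, was called higher (97.2 ± 5.33 and 127 ± 26.1 CPM, adjusted p = 0.0468 by edgeR), but its log2 change of 0.38 was -0.11 with scaling by totals only, and the call was lost when day 0 replicate 1, 2 or 3 or 30 h replicate 2 was left out (edgeR gave adjusted p = 0.102, 0.164, 0.109 and 0.0512). Of 15 genes of neurons, lung, gut, pancreas and gonad, 10 of 11 tested fell. Nkx2-1, a factor of lung and thyroid, had 0.522 ± 0.111 CPM at day 0 and no count at 30 h (adjusted p = 0.00101 by edgeR).

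Calls among megakaryocyte and macrophage markers are to be read beside those of all genes tested, 40.1% lower and 34.4% higher. Megakaryocyte genes gave 6 lower and 1 higher of 12 (744 to 891 CPM in sum at day 0, 692 to 1104 CPM at 30 h), with Pf4, platelet factor 4, rising from 165 ± 13.8 to 480 ± 176 CPM (adjusted p = 0.000777 by edgeR). Without 30 h replicate 1 the list had 2 higher and 5 lower. Macrophage genes gave 5 lower and 3 higher of 10 (7 and 2 with scaling by totals only), from Cd5l, which fell from 13.4 ± 2.26 to 0.214 ± 0.177 CPM (adjusted p = 4.07e-06 by edgeR; log2 change -5.98, or -6.87 without 30 h replicate 2), to Cd68, which rose from 7.73 ± 0.636 to 35.3 ± 7.47 CPM (adjusted p = 1.61e-05 by edgeR). Every erythroid gene listed rose, led by the adult globin gene Hbb-bs, 216-fold (adjusted p = 6.91e-07 by edgeR). Alas2, the heme synthesis enzyme of red cells, had 16, 17.2 and 19.4 CPM at day 0 and 1968, 1735 and 1669 CPM at 30 h. Of the 15 erythroid genes, 10 were highest in 30 h replicate 1 and 5 in replicate 3. Their sum was 122262, 122229 and 173820 CPM in 30 h replicates 1, 2 and 3, highest in replicate 3. The part of carried-over heart tissue, of other tissues and of red cells in the members' levels was not tested.

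**Figure D4:**
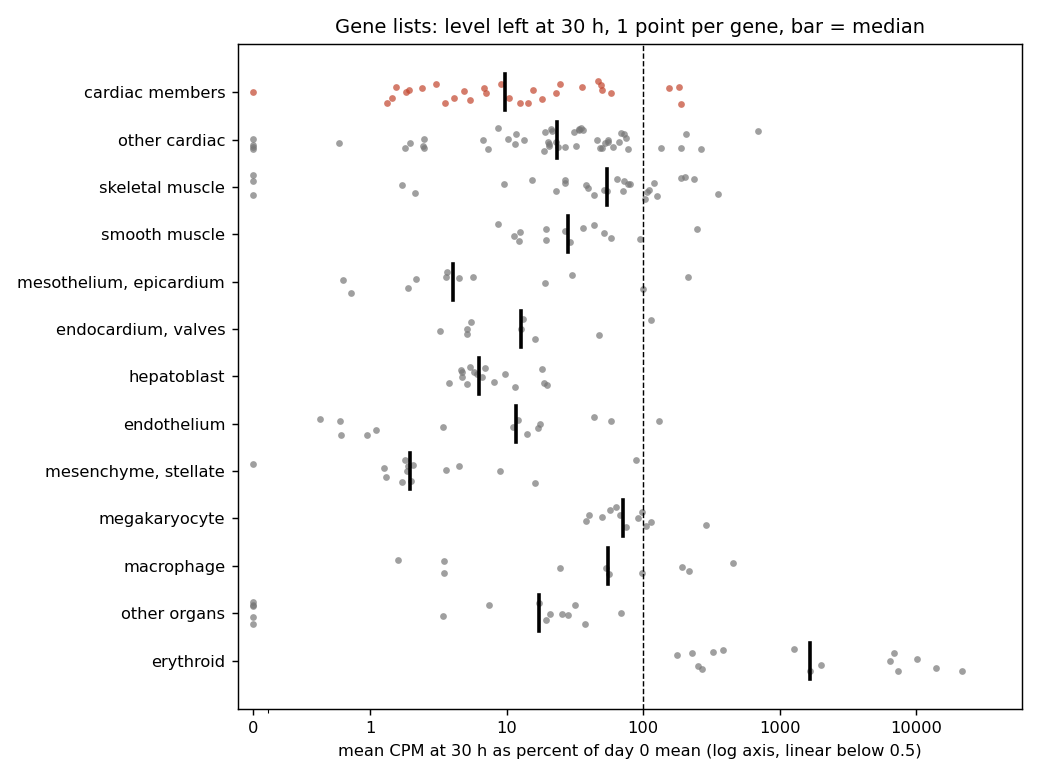
Mean CPM at 30 h as percent of the day 0 mean (log axis, linear below 0.5) for the cardiac members (red) and for the genes of 12 other lists (grey); each point is 1 gene and each bar the list's median over genes with counts at day 0. Medians are 9.8% for the members, 23.5% for other cardiac genes, 54.2% for skeletal muscle genes, 6.33% for hepatoblast genes, 1.95% for mesenchymal genes and 1674% for erythroid genes.

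Close relatives of the members, many of them used outside the heart, were more often called lower than higher. Of 52 relatives, some of which also stand in the lists above, 44 were tested, of which 26 were lower and 5 higher. Among all genes tested, 40.1% were called lower and 34.4% higher. Myh7b, a relative of the cardiac heavy chains, rose from 3.81 ± 0.939 to 40.2 ± 14.7 CPM (adjusted p = 3.91e-05 by edgeR), with 52.5, 44.2 and 23.9 CPM in 30 h replicates 1, 2 and 3. Gata1, the red cell relative of Gata4, rose from 200 ± 5.14 to 504 ± 53 CPM (adjusted p = 1.48e-05 by edgeR). Gata6, which acts with Gata4 in heart and gut, fell from 13.4 ± 1.67 to 1.15 ± 0.509 CPM (adjusted p = 1.21e-05 by edgeR), and Gata5 from 2.78 ± 0.734 to 0.0164 ± 0.0285 CPM (adjusted p = 3.16e-05 by edgeR), on 1 count at 30 h, in replicate 1. Actb, the common cytoplasmic actin, had the highest CPM of the relatives, at 1482 ± 34.8 and 1225 ± 197 CPM (adjusted p = 0.089 by edgeR), and was past the threshold as lower with totals-only scaling (log2 change -0.76), upper-quartile scaling (-0.42), no filter (-0.37) and without 30 h replicate 3 (-0.14).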

How the data were processed

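RNA was sequenced from 6 libraries, grouped by the labels as 3 at day 0 and 3 at 30 h. The files deposited by the authors hold whole-number counts per gene, with 54232 gene IDs each. Per the submitters' processing notes, the tools were STAR, HTSeq 0.6.1p1, cutadapt 1.13 and DESeq2 on build mm10. Their settings, strand use among them, are not given in the sources used here. Where genes overlap on opposite strands, reads may therefore be mixed.

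Symbols, positions and exon lengths came from the GENCODE M21 annotation, which uses that assembly. Counts were filtered by filterByExpr, scaled by TMM and tested with edgeR 4.0.16 (robust quasi-likelihood F test, R 4.3.3, Benjamini-Hochberg over 16150 genes, threshold 0.05). The same fit was also run on simulated counts with a common spread in all libraries and few changed genes. That setting differs from these data, with their wider spread at 30 h, and nothing here rests on it. Single-library log2 values used a prior count of 2. Library totals between 19241780 and 29949173 counts limit precision mainly for genes with few counts at 30 h. Exact counting intervals used scipy 1.17.1 at 95%, and a group without counts was set at 3 counts.

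The members and all gene lists were chosen with earlier results of these data known. Members were given in full if among the 12 highest per length at day 0, with a fitted change above 0, in one of 5 isoform pairs, or a transcription factor. From each other list the gene with the highest CPM at day 0 and the largest rise and fall past the threshold were named, with 3 more cardiac genes by adjusted p. Mylk3, Cacna1c, Cox6a2, Acta1, Alas2, Gata1, Gata6 and Tnnc2 were named after their values were seen. Of the genes the rule names, Apoa2, Lhx2, Npr3, Myh11, Itga2b, Gp1ba, Vcam1 and Tubb3 are left out of the text for length. Some items are not reported here. Alternatives were DESeq2 size factors, totals-only and upper-quartile scaling, no filter, DESeq2 1.42.0, a replicate block, leaving out each library, a prior count of 0.5 and the longest transcript as gene length. A planned comparison of protein sequences was not made, and exact 50-base stretches shared between transcripts were counted instead, a choice made after seeing the data. Replicates differed by more than sampling noise (chi-square per degree of freedom 4.35 to 101), so none was a copy of another.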

Additional observations from a re-analysis of the deposited data

How the results depend on the processing

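The members' median log2 change, -3.29, lay between -3.78 (totals only) and -3.08 (without 30 h replicate 1) over all alternatives, and 23 to 26 members had a fitted log2 change of -1 or less (25 as reported). No member past the threshold changed direction. With a prior count of 0.5 in place of 2, the median difference of log2 CPM over all 30 was -3.39 and not -3.15. By the longest transcript, 11 of the 12 members highest per length at day 0 stayed among them. Their order changed: Myl7 went from rank 2 to 5, Tpm1 from 3 to 2 and Myl2 from 5 to 3.

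Scaling by totals only gave 3601 genes higher and 8791 lower (5553 and 6483 as reported, a share of higher genes of 29.1% and not 46.1%), with 2 higher other cardiac genes, 1 skeletal, 0 smooth muscle and 0 endothelial. It also reversed the sign of Cox6a2 (-0.05) and Egfl7 (-0.11). Upper-quartile scaling gave 0 higher smooth muscle and 0 higher endothelial genes, with no filter the endothelial count was 0, and DESeq2 gave 1 higher mesothelial gene.

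Deviations of same-numbered libraries of the groups correlated at -0.105, 0.105 and -0.029, within the -0.108 to 0.141 of other pairs. With 3 libraries per group this cannot settle whether the numbers pair them. With the replicate block, 5254 genes were higher and 6277 lower, the members' median was -3.30, and 0 smooth muscle and 0 endothelial genes were higher.

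Leaving out 1 library at a time, higher genes ranged over 0 to 1 (endothelium and smooth muscle), 2 to 5 (skeletal), 0 to 2 (mesothelium) and 1 to 2 (megakaryocytes). The causes of these shifts were not tested. Depth limits the 15 members with mean counts under 10 at 30 h most.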
